A study of Mus musculus with 8 samples.

Results

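Npas2, Rtn4rl1, Gadd45g and Fzd1 name the loci of strong Ezh2 regions that were called in both wild-type libraries of mouse embryonic stem cells and not in cells lacking G9a and GLP. Ezh2 occupancy was measured by ChIP-seq in 2 libraries of wild-type TT2 cells, a line derived from a cross of C57BL/6 and CBA mice, which the titles number 0 and 1, and in 1 library of TT2 cells lacking both G9a and GLP, numbered 0. G9a occupancy was measured in 1 library of wild-type TT2 cells and in 1 library of knockout cells given back wild-type G9a, called the rescue, which by its label still lacked GLP. The labels do not state whether libraries 0 and 1 are separate cultures, nor whether the knockout cells are 1 clone. The loci were selected on the peak calls and peak scores described here, as the highest-scoring regions of both wild-type libraries without a knockout peak, so the missing knockout peak and the wild-type scores are descriptions and carry no test. All peaks overlapping 4 windows of the mm9 genome were taken, of 40 kb for Npas2, Rtn4rl1 and Fzd1 and of 50 kb for Gadd45g, which gave 33 peaks of 174428 in the deposited lists. Each window holds 1 strong Ezh2 region, and these 4 are among 2642 regions with peaks of both wild-type Ezh2 libraries. The gene names are working names for the windows, since no annotation of mm9 was used here.

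Ezh2 is the methyltransferase of Polycomb repressive complex 2 (PRC2), which modifies lysine 27 of histone H3 and in embryonic stem cells sits mainly at CpG-rich promoters of developmental genes that are kept silent. G9a and GLP form a heterodimer that methylates lysine 9 of the same histone. Npas2 encodes a bHLH-PAS transcription factor, a relative of Clock that pairs with Bmal1 in the circadian clock. Rtn4rl1 encodes a receptor of the Nogo receptor family at the neuronal surface. Gadd45g encodes a small stress-inducible protein that binds the kinase Map3k4 upstream of p38 and JNK signalling. Fzd1 encodes a Frizzled receptor for Wnt ligands.

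Promoter sequences, from 250 bases before to 50 after the start of the gene, were found in RefSeq for 3 of the 4 genes, Npas2, Gadd45g and Fzd1. They are shown because PRC2 sites in these cells are known for their CpG content, and CG dinucleotides are in capitals. Their build is GRCm38.p6, which is not that of the peaks. Positions were not converted between builds, so whether a peak covers a promoter was not tested. Npas2 lies on the plus strand at chr1:39194022-39194321, Gadd45g on the plus strand at chr13:51846425-51846724 and Fzd1 on the minus strand at chr5:4758167-4758466, all on GRCm38.p6.
Npas2: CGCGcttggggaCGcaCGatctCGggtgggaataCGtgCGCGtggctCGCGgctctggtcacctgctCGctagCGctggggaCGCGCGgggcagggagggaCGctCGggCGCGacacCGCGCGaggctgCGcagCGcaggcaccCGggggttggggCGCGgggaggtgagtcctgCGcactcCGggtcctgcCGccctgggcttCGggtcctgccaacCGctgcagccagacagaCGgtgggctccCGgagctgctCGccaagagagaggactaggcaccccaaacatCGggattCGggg
Gadd45g: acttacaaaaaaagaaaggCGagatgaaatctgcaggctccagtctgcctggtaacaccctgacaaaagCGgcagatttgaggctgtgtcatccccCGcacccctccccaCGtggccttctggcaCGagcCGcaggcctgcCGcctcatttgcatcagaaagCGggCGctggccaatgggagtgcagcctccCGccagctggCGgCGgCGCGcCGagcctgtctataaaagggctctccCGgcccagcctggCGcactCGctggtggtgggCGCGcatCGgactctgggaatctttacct
Fzd1: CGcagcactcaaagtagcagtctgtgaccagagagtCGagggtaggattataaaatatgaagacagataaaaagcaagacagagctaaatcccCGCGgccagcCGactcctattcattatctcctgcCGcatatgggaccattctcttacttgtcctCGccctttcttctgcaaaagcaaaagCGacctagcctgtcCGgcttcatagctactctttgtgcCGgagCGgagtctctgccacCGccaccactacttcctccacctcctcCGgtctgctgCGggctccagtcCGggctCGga

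The 3 promoters differ in CpG content. The Npas2 promoter holds 37 CG dinucleotides and is 72.7% G or C, and 5.58% of the 32851 RefSeq promoters in the table hold at least as many CG. The Gadd45g promoter holds 21 CG (62.3% G or C), a count reached by 24.8% of promoters. The Fzd1 promoter holds 16 CG (54.0% G or C), a count reached by 33%. The median promoter holds 7 CG. The GC box GGGCGG, searched on both strands (also as CCGCCC), occurs once in the Npas2 promoter and not in the other windows shown, and 35.7% of all promoters of this length hold it. By RefSeq gene order the nearest protein-coding genes are Pdcl3 and Rpl31 around Npas2, Dph1 and Rpa1 around Rtn4rl1, Sema4d and Diras2 around Gadd45g, and Mterf1b and Cdk14 around Fzd1. The genes differ in length, from 169539 bp for Npas2 and 73777 bp for Rtn4rl1 to 4378 bp for Fzd1 and 1801 bp for Gadd45g.

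The strong Ezh2 region of Npas2 ran from 39248626 to 39252656 on chromosome 1. The authors' peak score, by MACS convention 10 × −log10 of a p-value for the peak, was 821.53 in wild-type library 0 over a peak of 2620 bp. In library 1 the score was 2695.16 over 4031 bp. Scores depend on the depth and settings of each list and are read here only within a list: 4.98% of library 0 peaks and 3.33% of library 1 peaks scored higher than these. Library 1 had a second peak of 981 bp with a score of 83.94 starting 11 bp beyond the first. The knockout Ezh2 list and both G9a lists had 0 peaks in the Npas2 window, so Ezh2 of the wild type was the only signal called there.

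The Rtn4rl1 region ran from 75005533 to 75009764 on chromosome 11. Its library 0 peak scored 619.48 over 1941 bp, and its library 1 peak scored 2243.7 over 4232 bp. A weak library 1 peak (score 37.83, 759 bp) lay 17053 bp away at higher coordinates, and no knockout Ezh2 peak was called in the window. G9a peaks lay on that same side of the region. The wild-type G9a list had a peak of 1075 bp (score 20.69) at a gap of 3789 bp and a peak of 2217 bp (score 82.95) at 8157 bp, and the rescue list had 1 peak of 1605 bp (score 51.98) at 1248 bp. The rescue peak and the wild-type peaks did not overlap. The nearer wild-type peak scored close to its list's lowest score of 20. How often peaks of the G9a lists overlap elsewhere was not counted, so the lack of overlap is a description only.

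The Gadd45g region was the shortest, from 51942020 to 51944118 on chromosome 13. Its library 0 peak scored 639.43 over 1696 bp and its library 1 peak scored 1811.62 over 2099 bp. It was flanked on both sides by weaker wild-type Ezh2 peaks, so this window held a cluster and not a lone peak. Library 1 had 4 flanking peaks at lower coordinates and 1 at higher coordinates, with scores of 35.22 to 248.01. Library 0 had 1 on each side, with scores of 54.12 and 48.91. The strongest library 1 flank, 1953 bp from 51936720 to 51938672, overlapped the library 0 flank and so formed a second region of both libraries. None of these 9 wild-type Ezh2 peaks of the window had a knockout counterpart, but the locus was chosen for lacking one, so this is a description only. Weak regions were often uncalled elsewhere too. The median library 0 score was 67.57 in all 989 uncalled regions of both wild-type libraries and 230.88 in the 1653 kept ones. The second region also held 2 rescue G9a peaks, with scores of 21.12 and 22.7 close to the list's lowest score of 20, and 0 wild-type G9a peaks.

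The Fzd1 region ran from 4754918 to 4759097 on chromosome 5. Its library 0 peak scored 582.39 over 1961 bp and its library 1 peak scored 1752.77 over 4180 bp. Both were the only Ezh2 peaks of their lists in the window, and the knockout list had 0. The wild-type G9a list had 1 peak of 548 bp (score 26.23) at a gap of 13991 bp, and the rescue list had 0. Over the 4 windows there were 6 Ezh2 peaks of wild-type library 0, 11 of library 1 and 0 of the knockout, with 10 G9a peaks of the wild type and 6 of the rescue. Of the 33, 21 lay in the Gadd45g window.

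**Figure D1:**
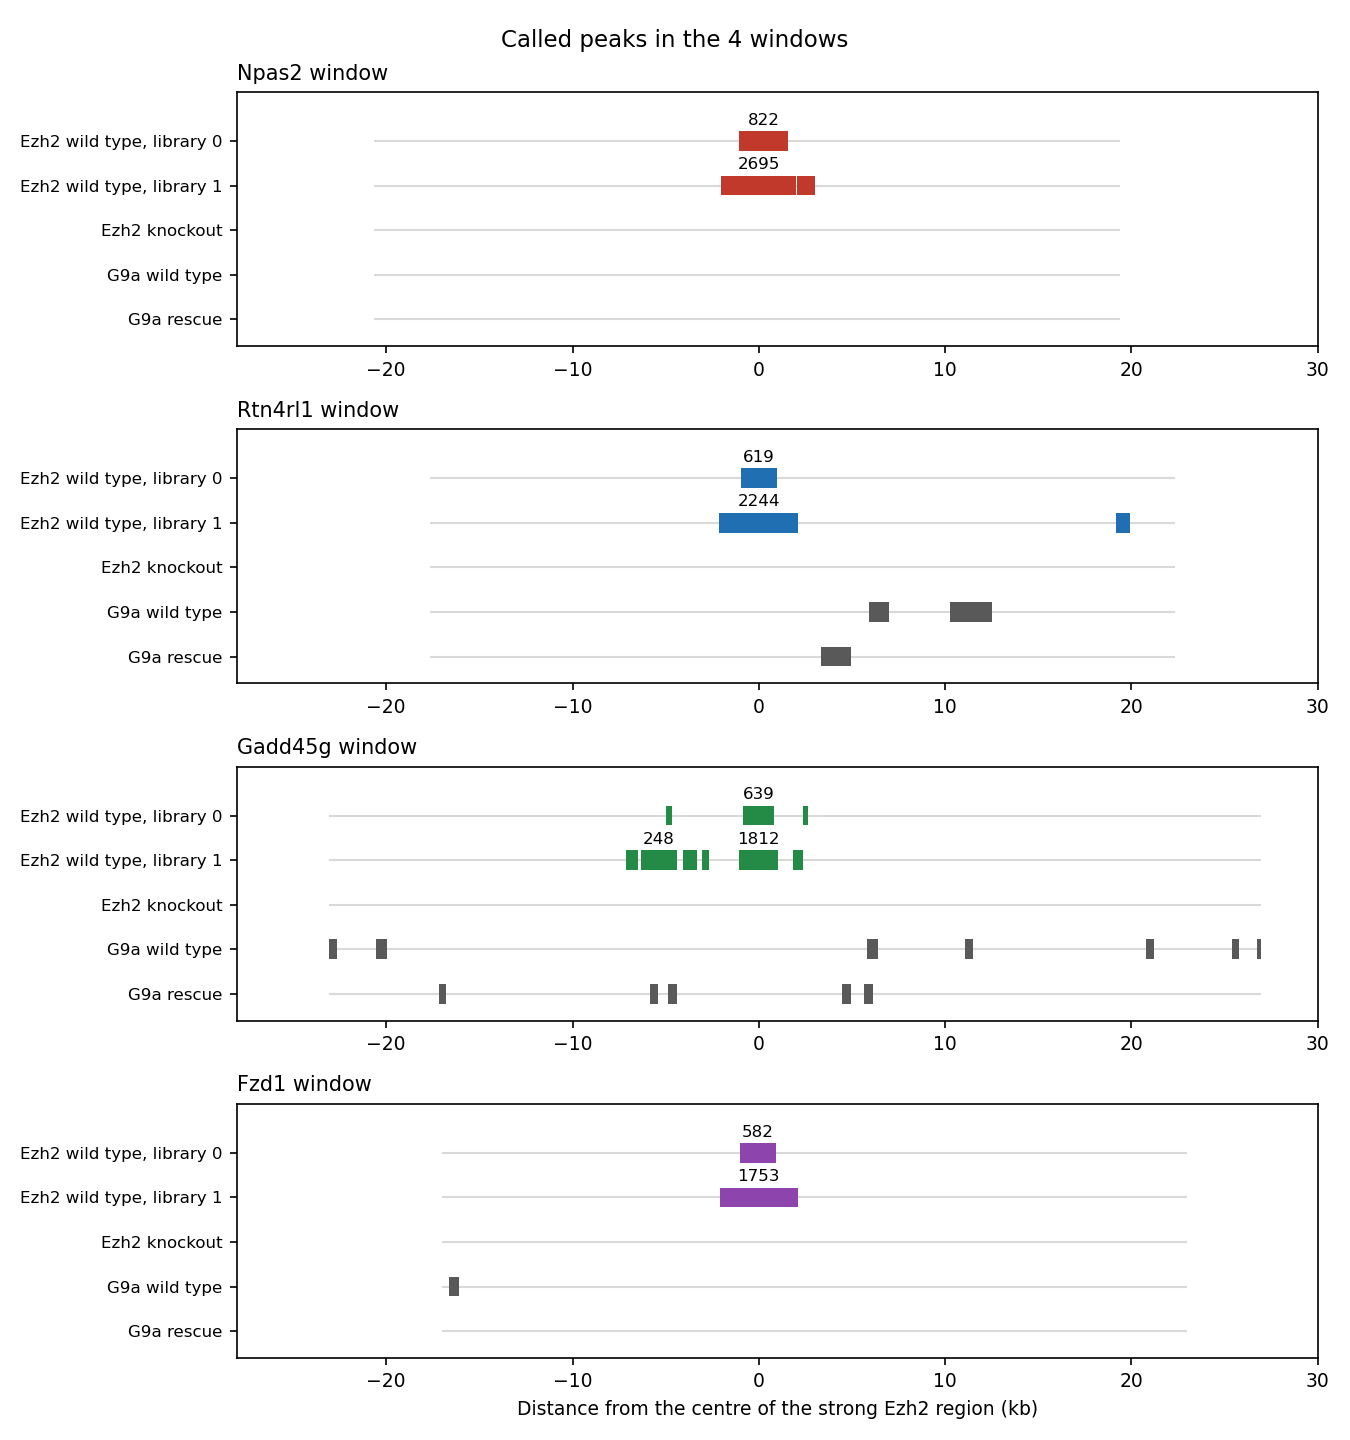
Peaks of the 5 lists in each window, drawn to scale as bars against distance from the centre of the strong Ezh2 region in kb, with scores of at least 200 printed above the bars and grey lines marking the extent of each window, where bars end too. The knockout Ezh2 row is empty in all 4 windows, the G9a bars lie beside the strong regions and not on them, and the Gadd45g window holds most of the bars.

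The wild-type peaks of libraries 0 and 1 were nested at each locus. Every library 0 peak of the 4 strong regions lay inside the library 1 peak. Library 0 covered 0.808 of the library 1 length at Gadd45g, 0.65 at Npas2, 0.469 at Fzd1 and 0.459 at Rtn4rl1. Over all 2642 regions the median covered length was 838 bp in library 0 and 2290 bp in library 1. Shorter library 0 lengths were thus not particular to the loci. The share of all regions with nested peaks was not counted, so nesting is a description only. The strong regions were single peaks in both libraries. Their order by score differed between the libraries below Npas2: Gadd45g was above Rtn4rl1 in library 0 and below it in library 1.

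Across all 2642 regions of both wild-type libraries, 37.4% (989) had no knockout peak, but few of the strong ones did. Ranked by the mean of the library 0 and library 1 ranks, 468 regions stood at or above Fzd1, the lowest of the 4, and 6 of these (1.28%) had no knockout peak. All 305 regions ranked above Npas2 had one. The other 2 uncalled regions of that range lay on chromosome 2 from 17965710 to 17970723 (scores 450.97 in library 0 and 2563.11 in library 1) and on chromosome 12 from 84825503 to 84828591 (532.54 and 1927.84). Just below Fzd1 came chromosome 10 from 13686973 to 13689041 (524.12 and 1867.02) and chromosome 13 from 113776179 to 113781940 (410.86 and 1936.14). That Npas2, Rtn4rl1 and Gadd45g were the first 3 uncalled regions depended on how regions were ranked. By library 0 score alone their ranks were 1, 3 and 2, and by library 1 score alone 2, 10 and 16. By the lower of the 2 ranks they were 1, 2 and 7. With library 0 left out their ranks were 2, 10 and 16, and that of Fzd1 was 18. With library 1 left out, which lets in regions of library 0 alone, the 4 ranks were 3, 5, 4 and 7. Library 1 scores reach a ceiling near 3100, which 338 regions met or passed, and all 338 had a knockout peak, so the 4 loci lay below the saturated range.

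**Figure D2:**
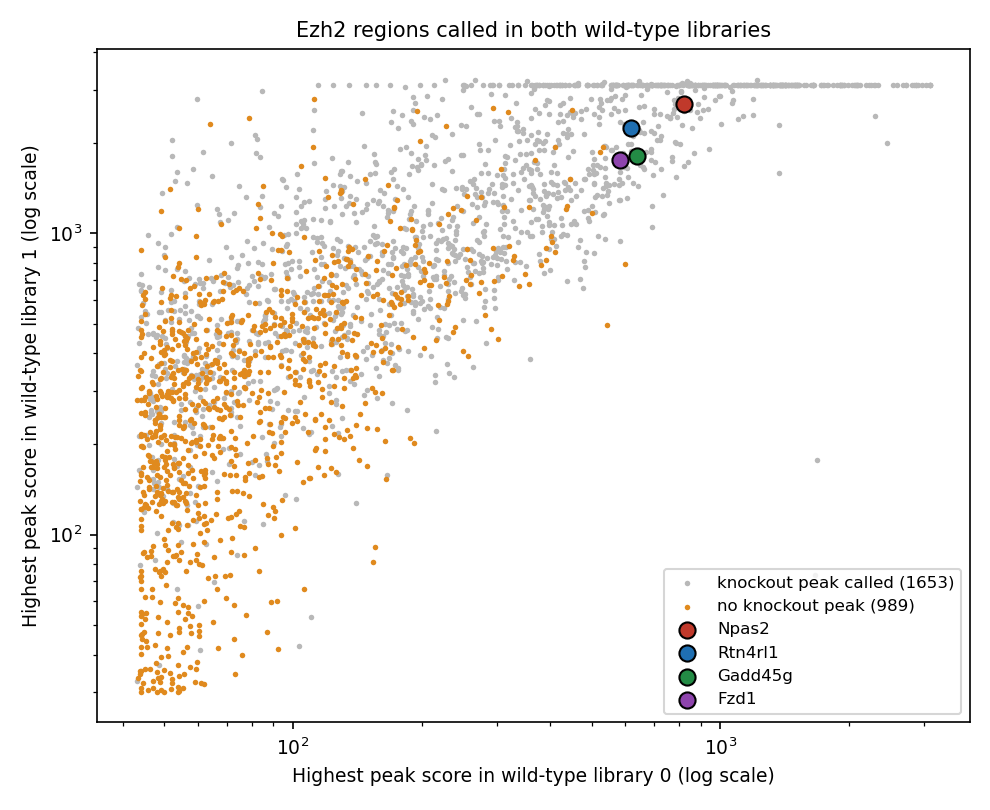
Highest peak score in wild-type library 0 against that in library 1, both on log scales, for the 2642 Ezh2 regions of both libraries, in grey where a knockout peak was called (1653) and in orange where none was (989). The 4 loci lie among grey points towards the upper right, away from the bulk of the orange points, and the row of points near 3100 is the ceiling of library 1 scores.

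Each locus was then set against regions of like wild-type score, those whose highest score lay within 20% of its own in both libraries. Nearly all of these regions had a knockout Ezh2 peak. The band around Npas2 in library 1 reaches the score ceiling, and 86 of its 122 regions met or passed 3100, where scores no longer rank regions, so these 86 are set aside here, a choice made after seeing the data. Of the 36 regions like Npas2 below the ceiling, 36 had a knockout peak (100%, exact binomial 95% interval 90.3 to 100). For Rtn4rl1 it was 45 of 48 (93.8%, 82.8 to 98.7), for Gadd45g 47 of 50 (94.0%, 83.5 to 98.7) and for Fzd1 55 of 58 (94.8%, 85.6 to 98.9), and none of these 3 groups held a region at the ceiling. The 3 uncalled regions in each of the last 3 groups were the same regions of chromosomes 10 and 12 named above and 1 more of the 4 loci. The groups share regions, so their shares are not independent of each other. Over all 4 groups together, with the 4 loci left out, 112 of 114 regions below the ceiling had a knockout peak (98.2%, 93.8 to 99.8). With those at the ceiling included, 198 of 200 did (99.0%, 96.4 to 99.9). These intervals cover the counting of regions within 1 knockout library and not variation between knockout cultures.

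Kept regions of like score spread widely in the knockout, and some were close to not being called. Their highest knockout score had a median of 260 for regions like Npas2 below the ceiling, 255 for Rtn4rl1, 206 for Gadd45g and 154 for Fzd1. The lowest was 49.52 for Npas2 and 47.35 for the other 3, in which it was the same region. The lowest score in the knockout list was 43.03. Knockout scores under 100 were found in 4 of the 36 kept regions like Npas2 (11.1%) and 9 of 45 like Rtn4rl1 (20.0%). They were found in 12 of 47 like Gadd45g (25.5%) and 18 of 55 like Fzd1 (32.7%). The groups share regions, so these counts are not separate. With each region counted once and those at the ceiling included, 23 of 198 kept regions were under 100 (11.6%). The 86 regions at the ceiling had a median knockout score of 411 and none under 114.46, and with them the Npas2 median would be 361 and the share under 100 would be 3.28%. With peaks held to scores of at least 100 in every Ezh2 list, the share of like regions with a knockout peak was 88.9% for Npas2 below the ceiling, 75% for Rtn4rl1, 70.0% for Gadd45g and 63.8% for Fzd1. Peak lists give no read counts, so fewer reads in the knockout library, a weaker enrichment and less Ezh2 at a site cannot be told apart, and the residual signal at the 4 loci is unknown. Which input served as control for the knockout list is not stated either, and it bears on knockout scores and calls.

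**Figure D3:**
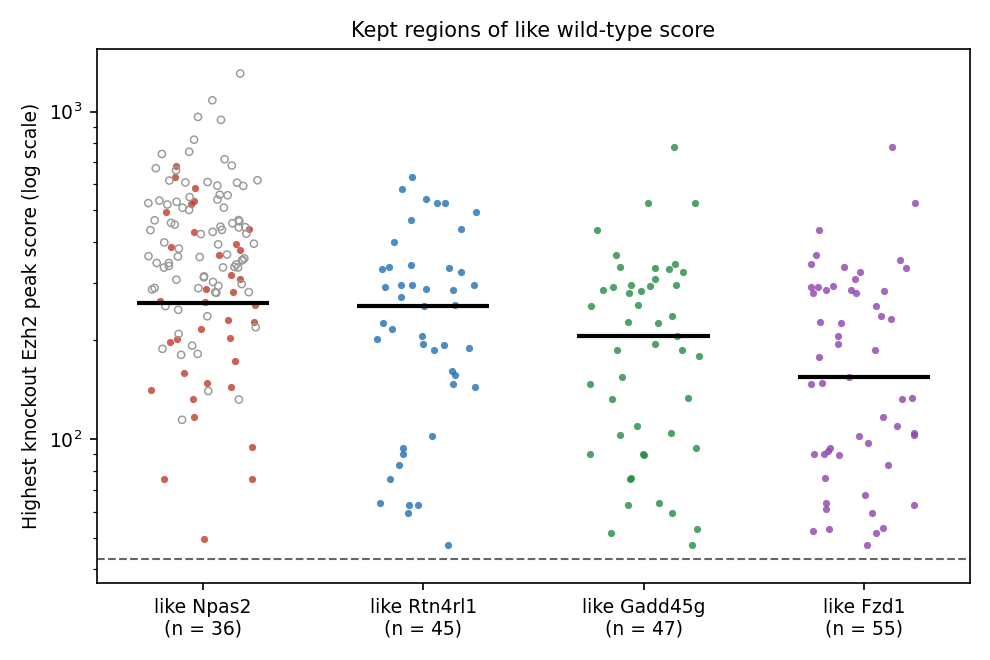
Highest knockout Ezh2 peak score, on a log scale, of the kept regions of like wild-type score for each locus, 1 point per region, with black bars at the medians of the filled points (260, 255, 206 and 154). Open grey points are the 86 regions at the library 1 score ceiling, which fall in the Npas2 group alone. The dashed line is the lowest score in the knockout list, 43.03, and the lowest points of each group lie just above it. Some regions appear in more than 1 group, among them the lowest point of the Rtn4rl1, Gadd45g and Fzd1 groups.

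For each locus the kept region closest in score is given. It was picked among regions with a knockout peak, so having one was fixed by the choice and only its knockout score and length are read. For Npas2 it was chromosome 3 from 82930506 to 82934452, with scores of 783.35 in library 0, 2682.68 in library 1 and 172.52 in the knockout. For Rtn4rl1 it was chromosome 7 from 123173376 to 123176374 (619.85, 2345.52 and 340.61). For Gadd45g it was chromosome 1 from 18047293 to 18049594 (633.12, 1785.66 and 75.85), and for Fzd1 chromosome 7 from 35902165 to 35906735 (593.63, 1796.56 and 89.73). The closest counterparts of Gadd45g and Fzd1 had knockout scores under 100, whereas those of Npas2 and Rtn4rl1 were above it. Their knockout peaks covered 1141, 1169, 485 and 1695 bp.

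The loci were compared in length with their kept regions of like score, and only Gadd45g was shorter than their median in both libraries under the score band of 20% and all 4 alternatives tried (bands of 10% and 40%, peaks within 1 kb merged, and regions below the ceiling alone). In library 0, Npas2 covered 1.12 times the median of its kept regions below the ceiling, Rtn4rl1 0.904, Gadd45g 0.905 and Fzd1 1.12. In library 1 the ratios were 1.03, 1.16, 0.640 and 1.27. The Npas2 ratios rest on leaving out the regions at the ceiling, since with them they were 0.799 and 0.736. Within 10% of score the library 0 ratio of Fzd1 was 0.87. At Gadd45g the library 1 length of 2099 bp was below that of each of its 47 kept regions, whose shortest was 2178 bp, while in library 0, 16 of the 47 were shorter. Npas2 was a single library 0 peak, as were 50.0% of its kept regions below the ceiling. For Rtn4rl1, Gadd45g and Fzd1 that share was 40%, 55.3% and 54.5%. When peaks within 1 kb were merged, the Rtn4rl1 and Fzd1 ratios in library 1 became 0.877 and 1.01.

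**Figure D4:**
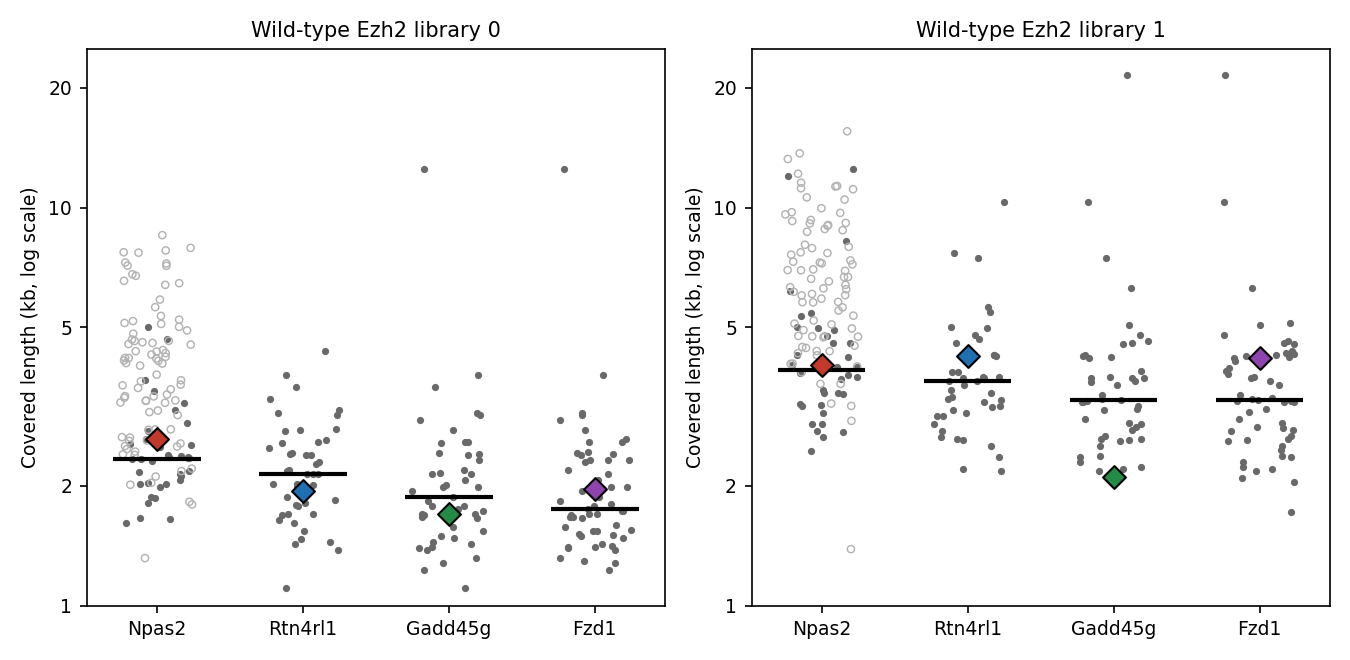
Length covered by wild-type Ezh2 peaks of library 0 and library 1, in kb on log scales, for the 4 loci (diamonds) and for the kept regions of like score (filled grey points, with black bars at their medians, and open points for regions at the library 1 score ceiling). The diamonds lie within the range of the points except for Gadd45g in library 1, which at 2.10 kb is below all of its 47.

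The nearest knockout Ezh2 peak lay farther from 3 of the loci than from Rtn4rl1. Those nearest to Rtn4rl1 and Gadd45g belonged to kept regions with higher knockout scores, which are described below. It lay 356 kb from the Npas2 region (score 49.98, 356 bp), 278 kb from Gadd45g (81.37, 399 bp), 108 kb from Fzd1 (49.77, 292 bp) and 19.1 kb from Rtn4rl1 (53.45, 375 bp). Among all 989 uncalled regions the median gap was 140 kb, with quartiles of 6.21 and 451 kb, so gaps as long as those of the loci were common. Of these regions 27.1% had a knockout peak within 10 kb. That could not occur at the loci, which were chosen for lacking a knockout peak in their windows. The knockout peak nearest to Fzd1 had no wild-type counterpart, and the first knockout peak of chromosome 5 that overlapped a wild-type Ezh2 peak was 13.97 Mb away. Below that peak chromosome 5 held 8 library 0 peaks, 34 library 1 peaks and 5 knockout peaks. The 5 regions of both wild-type libraries in that stretch, Fzd1 among them, were all uncalled. The other 4 were weak, with library 0 scores of 49.08 to 65.08.

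Strong Ezh2 regions within 1 Mb of Rtn4rl1 and Gadd45g were kept. On chromosome 11, the region from 74977981 to 74986830 lay 18.7 kb from the Rtn4rl1 region and scored 598.21 in library 0 and 2888.7 in library 1. It had 3 knockout peaks with a highest score of 409.03, covering 2832 bp. On chromosome 13, the region from 51661733 to 51664983 lay 277 kb from the Gadd45g region, with scores of 536.25 and 1945.2. It had 2 knockout peaks with a highest score of 335.53, covering 1353 bp. The neighbour of Gadd45g was within 20% of it in both scores. That of Rtn4rl1 was within 20% in library 0 and higher than that in library 1, so it is not a region of like score by the rule used above. They were longer than the loci they flank, at 8850 and 3251 bp.

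Around the other loci no strong neighbour was present. Within 1 Mb of Npas2 there were 2 further regions of both wild-type libraries, both uncalled, with library 0 scores of 69.77 and 47.62, and within 1 Mb of Fzd1 there was 1, uncalled, with a score of 65.08. Over 5 Mb on each side, 9 of 15 regions around Npas2, 13 of 17 around Rtn4rl1, 12 of 24 around Gadd45g and 0 of 2 around Fzd1 were kept, 34 of 58 in all (58.6%). Limited to neighbours with a library 0 score of at least 100, 28 of 33 were kept (84.8%), with 8 of 9 around Npas2. The share depends on the wild-type libraries required, as it was 17.6% (55 of 312) without library 0 and 42.7% (50 of 117) without library 1. The chromosomes of the 4 loci kept 52.3% (chromosome 1), 72.2% (11), 51.4% (13) and 61.8% (5) of their regions.

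None of the 4 strong regions held a G9a peak of either list. Of all 2642 regions, 16.0% held a wild-type and 20.0% a rescue G9a peak, and of the 112 kept regions of like score below the ceiling 16.1% and 20.5% did. With shares of this size, 0 of 4 says little about the loci. Within 20 kb of the region, a wild-type G9a peak was called at Rtn4rl1, Gadd45g and Fzd1 and not at Npas2, against 72.4% of all regions and 74.1% of those kept regions. A rescue G9a peak was called within 20 kb at Rtn4rl1 and Gadd45g, against 73.6% and 80.4%. With 4 loci these counts are values only and were not tested. Npas2 was the farthest from G9a, with gaps of 39.5 kb to the nearest wild-type peak (score 39.1) and 75.3 kb to the nearest rescue peak (score 21.48). In its kept regions below the ceiling the median gaps were 10.98 and 12.96 kb, and 30 and 35 of the 36 were closer than Npas2. Chromosome 1 also had few rescue G9a peaks, as 2262 of the 83721 lay there against 8226 of the 67318 wild-type peaks, and its part in the Npas2 value was not tested.

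The G9a peaks beside the loci had low scores, as did most peaks of these lists. Of the 10 wild-type G9a peaks in the windows, 2 scored at least 50, at Rtn4rl1 (82.95) and at the edge of the Gadd45g window (64.02), and of the 6 rescue peaks 1 did, at Rtn4rl1 (51.98). In the whole lists 27.5% of wild-type and 13.6% of rescue peaks scored at least 50. No G9a peak in these windows reached 100, as 10.7% and 3.65% of the lists did. Of the 10 wild-type peaks, 5 were above their list's median of 31.71, and of the 6 rescue peaks 1 was above the median of 26.86. At Gadd45g 1 wild-type peak (score 42.75) and 1 rescue peak (score 21.14), 4780 and 4619 bp from the strong region, overlapped each other. That was the only position in the 4 windows called in both G9a lists. The share of all G9a peaks called in both lists was not counted, so this is not read as a trait of the loci.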

How the data were processed

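ChIP-seq peak lists of 5 libraries were used. The series' 3 input libraries were not analysed here. Bowtie 0.12.7, MACS 1.4 and build mm9 are named in the submitters' processing notes. The G9a chromatin alone was also crosslinked with DSG, per the labels' protocols. Each deposited list gives peak positions and the authors' peak score. No source used here names the threshold for calling a peak. The lowest Ezh2 scores were 43.02 (library 0), 30 (library 1) and 43.03 (knockout), and both G9a lists began at 20. Per the series' design text the wild-type inputs were pooled as control for Ezh2 and G9a. Whether the knockout and rescue lists used this pool or the knockout input is not stated. The lists hold no read counts, so depth is unknown.

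Samples were grouped by title. Ezh2 peaks sharing at least 1 bp were joined into regions across the 3 lists, and a region with a knockout peak was called kept. A region's score was its highest peak score, and covered length was counted per library. Positions are 1-based. Regions named besides the loci were the next 4 by rank and the closest kept region per locus. Those within 1 Mb were named after their values were seen. The loci and comparisons were chosen with earlier results of these data known. With 1 knockout library, conditions were not tested against each other. Alternatives varied the score band, merging, overlap gap, minimum score, ranking and libraries used. Computations used Python 3.11.15, numpy 2.4.6, pandas 2.3.3, scipy 1.17.1 and matplotlib 3.10.9, and were tested on simulated data. Promoters and gene names came from RefSeq tables of GRCm38.p6, in which 4 of 4 gene symbols and 3 of 4 promoters matched.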

Additional observations from a re-analysis of the deposited data

How the results depend on the processing

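No paired analysis was possible because the wild-type and knockout Ezh2 groups share only the number 0. The loci were chosen for lacking a knockout peak in their windows, so the 6 alternatives for that count could not change it and say nothing of its stability. With scores of at least 100 in every Ezh2 list, 87.5% of regions of like score were kept in place of 99.0%, since weak knockout peaks are then dropped. With covered length also within 20% it was 100% (46 of 46), an alternative chosen after seeing the data. Leaving out each wild-type Ezh2 library gave 97.0 to 97.3%. The median ratio of covered lengths moved from 0.904 to 0.846 when peaks within 1 kb were merged, and to 1.08 for regions below the library 1 score ceiling, which was chosen after seeing the data and moved Npas2 alone. G9a peaks in the windows fell from 10 (wild type) and 6 (rescue) to 2 and 1 at scores of at least 50, 0 and 0 at scores of at least 100, and 0 and 0 within the merged regions. The rescue count was 10 with windows widened by 20 kb and 2 with its list cut to the wild-type length, the latter chosen after seeing the data. The median gap to a knockout peak, 193 kb, became 882 kb for knockout scores of at least 100 and 317 kb for knockout peaks shared with a wild-type list, because fewer peaks enter. The lowest rank among the 4 loci, 6, was 5 by library 0 score alone, 8 by the lower of the 2 ranks and 18 by library 1 score alone. Leaving out each wild-type library (chosen after seeing the data) gave ranks of 7 to 18. The kept share of neighbours within 5 Mb, 58.6%, was 17.6 to 42.7% with each wild-type library left out and 84.8% for library 0 scores of at least 100, both also chosen after seeing the data.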

Other observations

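Strong uncalled regions varied in how far they lay from any knockout Ezh2 peak. Of the 10 regions other than the loci among the first 14 uncalled by rank, 6 had gaps of 17.3 to 876 kb and 4 had gaps under 10 kb. The gaps of the loci were 19.1 to 356 kb. The loci were chosen for lacking a knockout peak in their windows, so gaps under 10 kb could not occur among them. The ranges are therefore not compared. The region on chromosome 1 from 74839381 to 74842008 (scores 369.28 in library 0 and 1755.24 in library 1) had a knockout peak 0.283 kb from its edge. The regions at 72560658 to 72563605 of chromosome 10, 113776179 to 113781940 of chromosome 13 and 17684836 to 17689625 of chromosome 3 had one at 0.90, 2.06 and 3.91 kb. These regions were chosen after their values were seen. The region on chromosome 13 also held 5 rescue G9a peaks and 0 wild-type G9a peaks. That on chromosome 3 held 1 of each, and those on chromosomes 1 and 10 held none. Of all 2642 regions 20.0% held a rescue and 16.0% a wild-type G9a peak, so the lack of both at the 4 loci is not read as a contrast.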
